A study of Mus musculus with 2 samples.

Results

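The genes described here serve protein folding in the endoplasmic reticulum (ER) and the stress response that adjusts it. They are 34 genes chosen by name, of the 17305 genes on the array that had a probe set annotated to exactly 1 gene symbol, and the brightest such probe set stands for each gene. All 34 were measured. They were compared between grafted small intestinal epithelium and control colonic epithelium of the mouse, with 1 array for each. The graft came from small intestinal cells of EGFP-transgenic mice on a C57BL6 background, which were grown for 7 days as organoids, that is, as epithelial cultures that contain stem cells. The organoids were placed in the colonic lumen of C57BL6 recipients, and the graft was collected 4 weeks later. The control was normal colonic epithelium of C57BL6 mice, which went through neither culture nor transplantation. Both epithelia were cut out by laser microdissection, many serial sections of a specimen were pooled, and of each group the specimen with the best RNA integrity was arrayed. Ungrafted small intestine was not analysed here, so tissue of origin, culture and grafting cannot be told apart.

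Secreted and membrane proteins enter the ER through the translocon, fold with the help of chaperones and disulfide isomerases, and are sent back to the cytosol for degradation if folding fails. Unfolded protein in the ER activates the kinases IRE1 and PERK and the membrane-bound factor ATF6, which through XBP1, ATF4 and the released part of ATF6 raise the transcription of these same helpers. The intestine depends on this system because goblet and Paneth cells secrete large amounts of disulfide-rich proteins. Much of the signal runs through splicing of Xbp1 RNA, translation of Atf4 and cleavage of ATF6, and gene-level array values show none of these steps.

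The labels were set beside marker genes. These lists were chosen with earlier results of these data known, so they are no independent check of the labels. Of 12 measured markers of small intestinal enterocytes, 9 were higher in the graft by 2-fold or more, and all 11 measured markers of colonic epithelium were lower there by 2-fold or more. The 13 general epithelial markers held a mean log2 level of 9.74 in the graft against 9.60 in the colon. Markers of Paneth cells differed more than those of goblet cells, with 5 of 10 measured genes past 2-fold upward and a mean level of 8.21 in the graft against 5.50 in the colon. Goblet cell markers had mean levels of 8.62 and 8.76 in graft and colon over 14 genes, with 1 gene at least 2-fold higher (Retnlb) and 4 lower (Zg16, Bcas1, Atoh1 and Ern2). Retnlb, a secreted antibacterial protein, had a difference of 5.57 and Zg16, a secreted lectin-like protein, of -5.51. Ern2 is also among the 34 genes described here. Of 13 measured plasma cell markers, 8 lay below the median level of all genes on both arrays, and only Igha passed 2-fold, at 8.27 in the graft against 5.56 in the colon. Of 16 measured leukocyte markers, 8 lay below the level of 5.48 on both arrays, and the median difference of all 16 was 0.27. Ptprc, Cd68, C1qa, C1qb, S100a8 and S100a9 reached that level on the graft array only. Lyz2 and Ccl5, which reached it on both arrays, had differences of -0.12 and -0.21. S100a8 and S100a9, which are abundant in neutrophils, were the leukocyte markers past 2-fold, with differences of 2.01 and 1.36, and the mean level of all 16 was 5.54 in the graft against 5.13 in the colon. Fibroblast and smooth muscle markers had mean levels of 6.07 and 6.40 in graft and colon over 12 genes, with Lum alone past 2-fold, at -1.76. The part of these cell types in the values below was not tested. A difference in such bulk samples cannot separate fewer cells of a type from less RNA per cell.

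ER folding and stress genes stood at similar levels in the graft and the colon. The differences, graft minus colon on the log2 scale, ran from -1.01 for Ern2 to 0.87 for Hyou1. Counts were restricted to genes that reached 5.48, the median of all gene values, on at least 1 array, and 33 of the 34 genes did so. Derl3 was the exception, at 5.26 in the graft against 5.28 in the colon. Of the 33 genes, 0 were higher in the graft by 2-fold or more, where 3.55% of the 9392 genes at that level were, and 1 was lower by 2-fold or more, where 5.68% were. At 1.5-fold, 4 were higher and 2 were lower, beside 8.42% and 14.6% of all genes. The counts past a fold are too small to set the 33 genes apart from all genes. Since each group has a single array, nothing could be tested, and the values describe these 2 samples alone.

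The sign of the differences varied with the role of the genes. The median over the 33 genes was 0.094, against -0.047 over all 9392 genes, and 21 of the 33 had a positive difference, against 41.6% of all genes. Folding helpers were mostly higher in the graft: 13 of the 16 chaperones, co-chaperones, lectins and isomerases had a positive difference, with a median of 0.24. Other ER co-chaperones and prolyl isomerases, which are not among the 34 genes, had 5 positive and 10 negative differences over 16 genes at the level filter, with a median of -0.042. Genes of ER-associated degradation were mostly lower: 6 of the 7 that reached the level filter had a negative difference, with a median of -0.20. Negative differences made up 54.0% of all genes. Among the 1936 array genes at least as bright as the median of the 33, 40.4% had a positive difference. The only error at hand is the disagreement between probe sets of the same gene. Over 586 genes with a second probe set at the level filter, it corresponds to an SD of 0.34 for the difference read from 1 probe set. This SD leaves out variation between animals. It also leaves out what all probe sets of an array share, such as dissection, amplification and hybridisation. Of the 33 genes, 20 lay within that SD of 0, 7 lay above it and 6 below it. Of all 9392 genes 56.6% lay within it, which is close to the share of the 33, so this count sets nothing apart either.

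**Figure D1:**
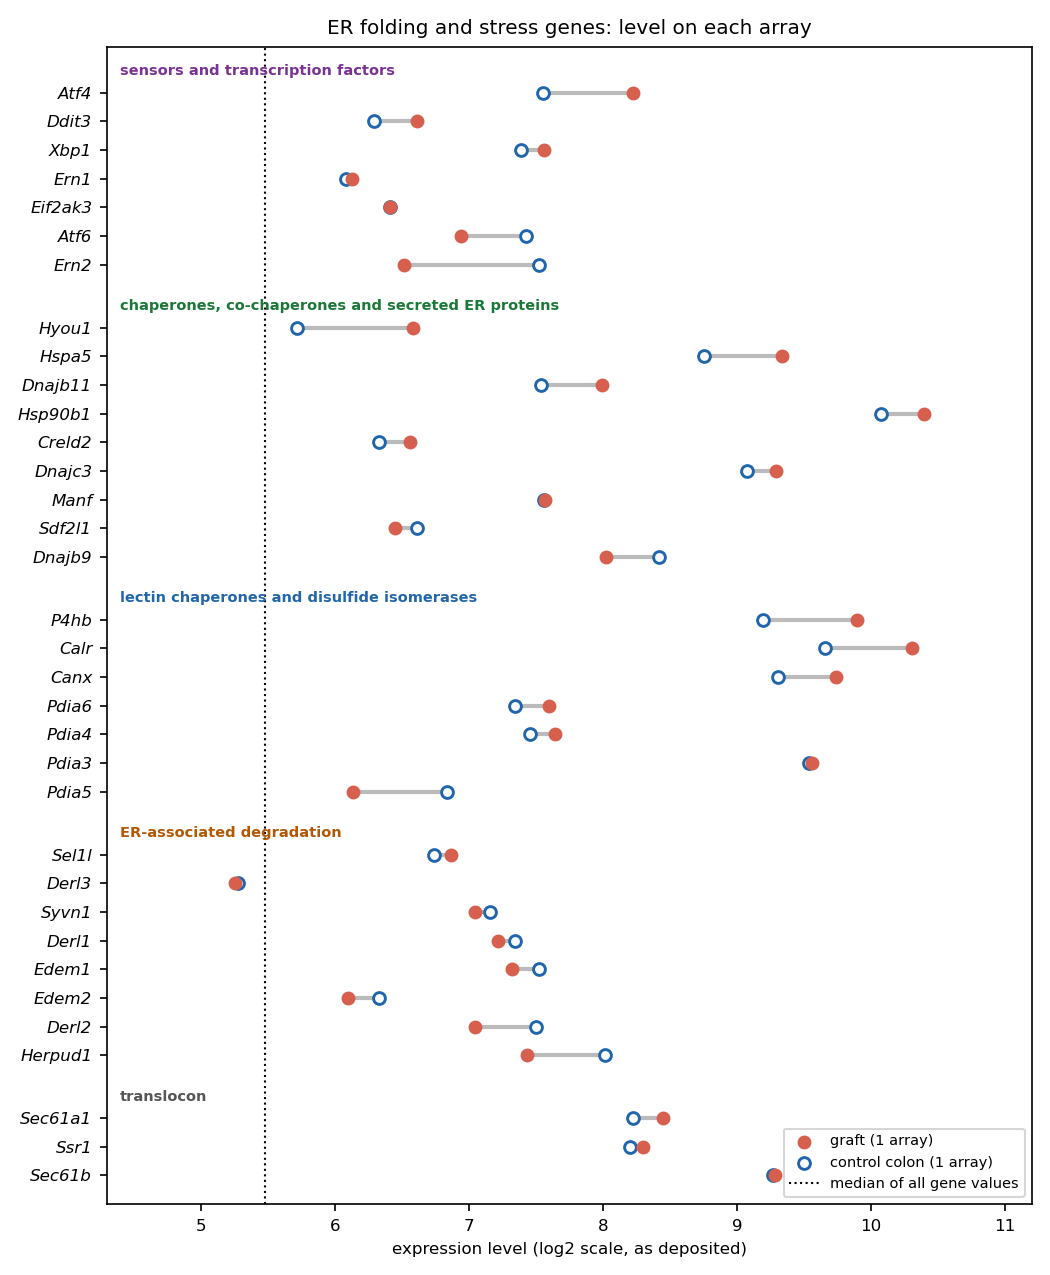
Level of each of the 34 genes on the graft array (filled) and the colon array (open), on the log2 scale as deposited, in 5 role groups. Each point is 1 array, so there are no error bars. The dotted line is the median of all gene values, 5.48, which Derl3 did not reach on either array. Levels may be compared between the arrays for a gene, not between genes.

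The sequence element through which ATF6 and XBP1 act on chaperone genes was present in the promoters of several of these genes. The ER stress response element, ERSE, was searched as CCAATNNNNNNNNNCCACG, and its shorter form ERSE-II as ATTGGNCCACG. The windows run from 250 bases before to 50 bases after the annotated start in RefSeq (build GRCm38.p6), and both strands were read. Windows were at hand for 28 of the 34 genes, and 9 of them (32.1%) held an exact ERSE. Over all 27025 genes with a window, 37 (0.137%) held it, and over the 7598 array genes at the level filter with a window, 12 (0.158%) did. The 34 genes were chosen by name for this response, and the element is known from such genes. The higher share among them therefore follows from the choice of genes and is no finding of these data. ERSE-II was in 2 of the 28 (Dnajb11 and Herpud1) and in 0.0444% of all genes. The XBP1-binding motif UPRE, TGACGTGG, and the composite site of ATF4, TGATGCAAT, were in 0 of the 28 windows and in 0.714% and 0.222% of all genes. The stretches below are shown because they hold the elements, and each reads 5′ to 3′ on the strand of its gene, upstream of the start. Capitals mark the fixed bases of the element. Where these read CGTGG before ATTGG, the element lies on the opposite strand.
Hspa5, chr2:34771940-34772089, plus strand: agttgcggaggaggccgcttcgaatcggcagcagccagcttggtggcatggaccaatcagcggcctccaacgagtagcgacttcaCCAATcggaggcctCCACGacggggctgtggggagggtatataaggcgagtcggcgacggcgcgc
Hsp90b1, distal, chr10:86705626-86705668, minus strand: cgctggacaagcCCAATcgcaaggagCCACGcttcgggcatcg
Hsp90b1, proximal, chr10:86705521-86705563, minus strand: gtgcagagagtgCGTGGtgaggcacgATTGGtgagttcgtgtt
Calr, chr8:84847063-84847105, minus strand: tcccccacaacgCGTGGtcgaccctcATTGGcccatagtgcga
Canx, chr11:50325788-50325830, minus strand: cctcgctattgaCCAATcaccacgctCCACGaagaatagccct
Pdia6, chr12:17266479-17266521, plus strand: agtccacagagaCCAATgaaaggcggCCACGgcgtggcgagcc
Dnajc3, chr14:118937815-118937857, plus strand: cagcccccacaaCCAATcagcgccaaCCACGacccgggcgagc
Creld2, chr15:88819508-88819550, plus strand: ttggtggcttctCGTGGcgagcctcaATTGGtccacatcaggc
Syvn1, chr19:6046520-6046562, plus strand: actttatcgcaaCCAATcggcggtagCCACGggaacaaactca
Derl3, chr10:75893230-75893272, plus strand: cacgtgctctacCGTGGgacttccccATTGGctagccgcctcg
Herpud1, ERSE-II, chr8:94386365-94386399, plus strand: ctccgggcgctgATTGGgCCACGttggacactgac

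The 9 genes with an exact ERSE had differences between -0.11 (Syvn1) and 0.64 (Calr), with a median of 0.26. Derl3, 1 of the 9, did not reach the level filter. Of the other 8 genes 7 were positive, where 41.6% of all genes were, and their median was 0.29. These 7 are all folding helpers and Syvn1 is a degradation gene, so this split overlaps with that by role. With the ERSE-II genes Dnajb11 and Herpud1 added, 11 genes ran from -0.58 to 0.64. Of these 11, 8 were positive and 3 negative, with a median of 0.26. The 17 genes whose windows held no exact ERSE or ERSE-II had a median of 0.022, with 10 positive. They ran from -0.70 (Pdia5) to 0.71 (P4hb). Inexact copies were not searched, so these 17 may still hold some. The ranges of the 9 and of the 11 genes lay within that of the 17. The motif groups were formed with the differences known, so no test was made. A match describes the letters of the window only and shows neither binding nor activity.

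**Figure D2:**
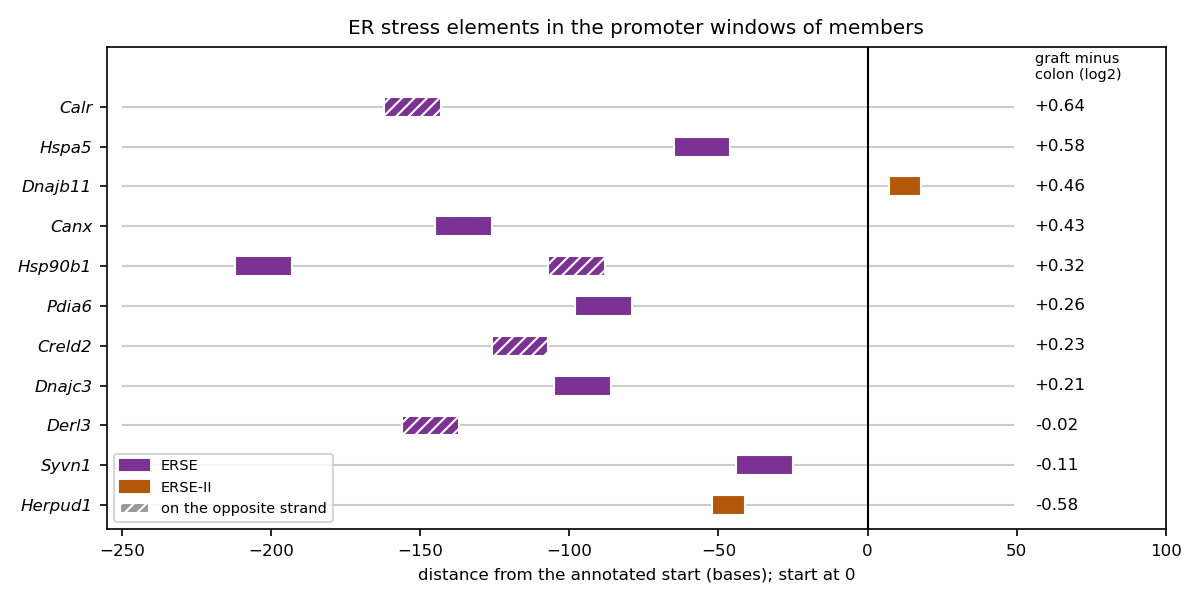
Position of exact ERSE and ERSE-II matches in the promoter windows of the 11 genes that hold either, in bases from the annotated start, ordered by their difference between graft and colon, which is printed at the right. Hatched blocks lie on the strand opposite to the gene. Hsp90b1 holds ERSE at 2 places. In Dnajb11 the ERSE-II match begins 7 bases after the start.

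Among the sensors and transcription factors, the largest difference was that of Ern2. Ern2 encodes IRE1 beta, a relative of IRE1 alpha found mainly in mucus-secreting epithelia. It was at 6.51 in the graft against 7.52 in the colon, which is 2.02-fold lower in the graft, and 5.58% of all genes had a lower difference. Its value lay just past the 2-fold limit, and quantile normalization moved it to -0.94. Ern1, which encodes the widely expressed IRE1 alpha, was at 6.13 in the graft against 6.09 in the colon. The differences of these related genes, -1.01 for Ern2 and 0.040 for Ern1, lay farther apart than the SD between probe sets of the same gene, 0.48. The goblet cell markers went in both directions, with 7 positive and 7 negative differences over the 14 measured genes, Ern2 among them. Muc2, the main gel-forming mucin, was at 11.10 in the graft against 10.96 in the colon. Atoh1, the factor that specifies secretory cells, was at 7.47 in the graft against 8.49 in the colon. Agr2, a disulfide isomerase that mucin folding requires, was at 11.60 in the graft against 11.64 in the colon. The part of goblet cells in the value of Ern2 was not tested.

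Atf6, the chaperone-inducing sensor, was also lower in the graft, at 6.94 against 7.43 in the colon, a difference of -0.49. Its relative Atf6b was at 6.06 in the graft against 5.99 in the colon. Eif2ak3, which encodes PERK, had the same value of 6.41 on both arrays to every deposited decimal, as had 409 of the 9392 genes at the level filter (4.35%). Xbp1, the target of IRE1, was at 7.56 in the graft against 7.39 in the colon, and both values count spliced and unspliced RNA together. These differences, apart from that of Atf6, were smaller than the probe set SD of 0.34.

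Atf4, the factor translated when PERK is active, was higher in the graft at 8.22 against 7.56 in the colon, which is 1.59-fold. Only 6.98% of all genes had a higher difference. Ddit3, which encodes the stress factor CHOP and is a target of ATF4, was at 6.61 in the graft against 6.29 in the colon, a difference of 0.32. Among 13 other ATF4-linked stress genes at the level filter, 1 was at least 2-fold higher, 0 were 2-fold lower, and the median was 0.21, with 8 positive and 5 negative differences. The gene past 2-fold was Atf3, a stress-induced repressor, at 8.33 in the graft against 6.92 in the colon. Asns, which makes asparagine, was at 6.76 in the graft against 5.99 in the colon. Chac1, a glutathione-degrading enzyme induced by ATF4 and CHOP, was at 5.55 and 5.23 in graft and colon. Lowest in this list were Cth, an enzyme of cysteine synthesis, at 6.42 in the graft against 7.12 in the colon, and the stress-induced gene Nupr1 at 7.18 in the graft against 7.83 in the colon, both chosen after their values were seen. Trib3, a pseudokinase induced by CHOP, and Ppp1r15a, which restores translation, stayed below the level filter on both arrays, with differences of 0.23 and -0.25. Of the 22 measured genes of this list, 9 did not reach the filter, which limits what it can show. Chac1, Mthfd2 and Shmt2 reached the filter on the graft array only, so their positive sign follows from how they passed it. Over all 22 measured genes the median was 0.029. The median of 0.21 therefore depends on the level filter, and no upward shift of the list can be read from it.

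The chaperones proper among the 34 genes, Hyou1, Hspa5 and Hsp90b1, were higher in the graft, all by less than 2-fold. Hyou1, an ER member of the HSP110 family that exchanges the nucleotide of BiP, was at 6.58 in the graft against 5.72 in the colon, which is 1.82-fold higher in the graft and the largest positive difference of the 34 genes. Hspa5, which encodes BiP, the HSP70 of the ER and a brake on all 3 sensors, was at 9.34 in the graft against 8.76 in the colon, a difference of 0.58. Hsp90b1, the HSP90 of the ER, was at 10.39 in the graft against 10.08 in the colon, a difference of 0.32, within the probe set SD of 0.34. Hspa13, from the list of other ER co-chaperones, had a difference of -0.18, also within that SD. The promoters of Hspa5 and Hsp90b1 are among those that hold ERSE, and that of Hspa5 has its exact match 65 to 47 bases before the start. No window was at hand for Hyou1.

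The DnaJ co-chaperones, which deliver clients to BiP, did not share a direction. Dnajb11 was at 7.99 in the graft against 7.54 in the colon, a difference of 0.46. Dnajc3, which also restrains PERK, was at 9.29 in the graft against 9.07 in the colon, and a second probe set gave 0.21 as well. Dnajb9, a known target of XBP1 that acts on IRE1 and on degradation clients, was lower in the graft at 8.02 against 8.42 in the colon, a difference of -0.40. Dnajb9 and Dnajb11 thus lay on opposite sides of 0, each beyond the probe set SD. Sdf2l1, a partner of BiP and Dnajb11, was at 6.45 in the graft against 6.61 in the colon, and its relative Sdf2 had a difference of -0.24. The small secreted protein genes Manf and Creld2, both induced by ER stress, had differences of 0.0083 and 0.23. Manf was at 7.57 in the graft against 7.56 in the colon, and Creld2 was at 6.56 in the graft against 6.33 in the colon.

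**Figure D3:**
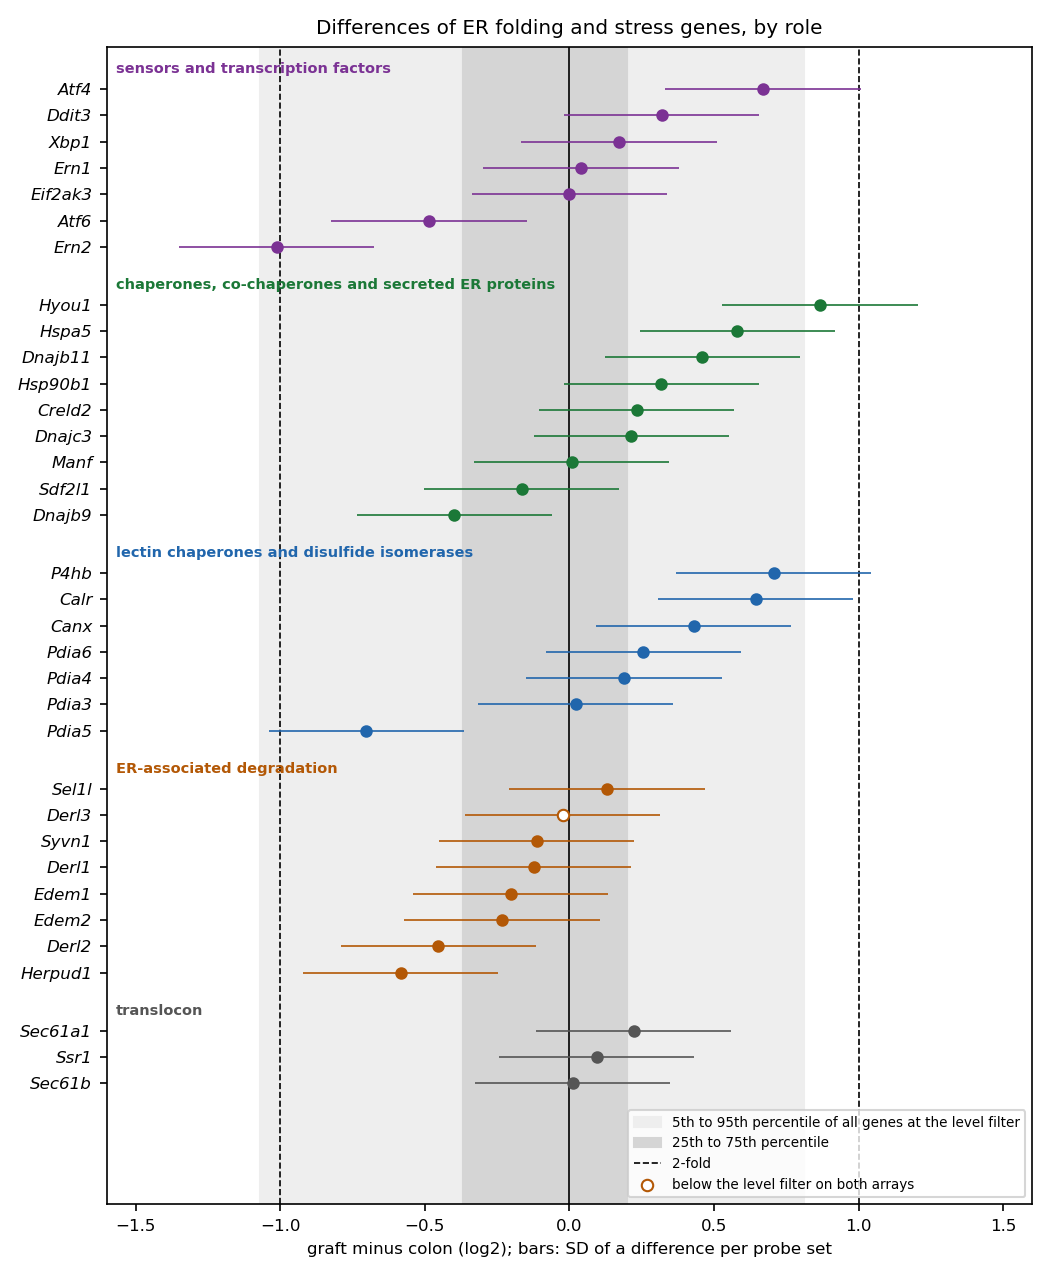
Difference of each gene, graft minus colon on the log2 scale, in 5 role groups. Bars are the SD of a difference per probe set (0.34), estimated from genes with a second probe set. They carry no variation between animals, dissections, amplifications or hybridisations. Light and dark grey bands hold the central 90% and 50% of the 9392 genes at the level filter. Folding helpers lie mostly right of 0 and degradation genes mostly left of it, and Ern2 alone passes a dashed 2-fold line.

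Both lectin chaperones of the calnexin cycle, which hold glycoproteins until they are folded, were higher in the graft. Calr was at 10.30 in the graft against 9.66 in the colon, 1.56-fold. Canx was at 9.74 in the graft against 9.31 in the colon, 1.35-fold. Their promoters hold ERSE at 162 to 144 and at 145 to 127 bases before the start. The other 14 measured genes of glycan trimming and the lectin cycle went in both directions, with 7 positive and 5 negative differences over the 12 at the level filter and a median of 0.035. Prkcsh, a subunit of glucosidase II, had a difference of 0.57 and Ngly1, the cytosolic glycan-removing enzyme, of -0.71, and both were chosen after their values were seen.

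Of the disulfide isomerases, P4hb and Pdia5 stood at opposite ends. P4hb, the classical protein disulfide isomerase, was at 9.90 in the graft against 9.19 in the colon, which is 1.63-fold higher in the graft. P4hb also serves the microsomal triglyceride transfer protein as its small subunit, and Mttp, the large subunit, which was looked up after its values were seen, was at 8.60 in the graft against 4.74 in the colon. Pdia5 was at 6.13 in the graft against 6.84 in the colon, 1.63-fold lower in the graft. Pdia6, which acts on the sensor IRE1 and on BiP clients, was at 7.60 and 7.34 in graft and colon, and Pdia4 at 7.65 and 7.46. Pdia3, the isomerase that works with the lectins, was at 9.56 in the graft against 9.54 in the colon. The difference of Pdia3, 0.022, was below those of its partners Calr and Canx, and this gap was not tested.

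The oxidase that recharges these isomerases differed more than any of the 34 genes. Ero1a was at 9.60 in the graft against 7.51 in the colon, a difference of 2.09. Its relative Ero1b, whose window holds an exact ERSE, was at 5.99 in the graft against 5.73 in the colon. Among the 18 genes for oxidoreductases and disulfide formation at the level filter, Ero1a was the only one past 2-fold, 0 were 2-fold lower, and the median was -0.015. Txndc5, an isomerase abundant in plasma cells and other secretory cells, was at 7.70 in the graft against 7.51 in the colon.

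The degradation genes were mostly lower in the graft, by small differences. Herpud1, which scaffolds the ubiquitin ligase of the ER membrane and carries ERSE-II in its promoter, was at 7.43 in the graft against 8.02 in the colon, a difference of -0.58. Its relative Herpud2 was at 6.74 in the graft against 7.46 in the colon. Derl2, a membrane protein of the retrotranslocation channel, was at 7.05 in the graft against 7.50 in the colon, a difference of -0.45. The other derlin at the level filter, Derl1, had a smaller difference of -0.12. Derl3, whose expression is restricted to secretory cells such as plasma cells, was below the level filter on both arrays, so no direction can be read from it.

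The mannosidase-like genes Edem1 and Edem2, which mark misfolded glycoproteins, had differences of -0.20 and -0.23. Edem1 was at 7.32 in the graft against 7.52 in the colon, and Edem2 was at 6.10 in the graft against 6.33 in the colon. Edem3, from the list of other genes, had a difference of -0.19, so the 3 Edem genes lay close together. Syvn1, the ubiquitin ligase HRD1, was at 7.05 in the graft against 7.16 in the colon. Its partner Sel1l, alone among the 7 of the 34 genes in this group that reached the level filter, had a positive difference, at 6.87 in the graft against 6.74 in the colon. Except for Herpud1 and Derl2, each of these differences lay within the probe set SD. Among 23 further degradation factors at the level filter, 4 had a positive and 14 a negative difference, and 5 were equal on both arrays. Of all 9392 genes, 54.0% had a negative difference. The median of the 23 was -0.021, above that of all genes, -0.047. Of the 23 factors, 1 was at least 2-fold lower. That gene was Erlin1, a membrane scaffold for receptor degradation, at 5.71 in the graft against 7.04 in the colon.

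The translocon genes differed least. Sec61a1, which encodes the channel, was at 8.45 in the graft against 8.22 in the colon. Ssr1, a subunit of the translocon-associated TRAP complex, was at 8.30 in the graft against 8.21 in the colon. Sec61b, a small channel subunit, was at 9.28 in the graft against 9.27 in the colon by its brightest probe set, but its other probe sets gave -0.28 and -0.43, and the mean over all 3 was -0.23. The sign for Sec61b therefore depends on the probe set. Of 30 other genes for the translocon, signal peptidase and oligosaccharyltransferase at the level filter, 0 differed by 2-fold, and their median was -0.027.

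The remaining genes of the pathway were compared as 9 lists of 192 measured genes that are not among the 34. Of the 171 at the level filter, 4 were higher in the graft by 2-fold or more, beside 3.55% of all genes. By the same limit 2 were lower, beside 5.68%. The median of the 171 was -0.0099. Besides Ero1a and Atf3, the higher genes were Creb3l3 and Hsph1. Creb3l3, an ER-bound factor of liver and small intestine that is activated like ATF6, was at 7.31 in the graft against 5.28 in the colon. Its colon value lay below the level filter. Creb3l1, another factor of this kind, had a difference of -0.62. Besides Erlin1, the lower gene was Fkbp9, an ER prolyl isomerase, at 5.61 in the graft against 6.94 in the colon.

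The list of cytosolic and mitochondrial heat shock genes had the highest median of the 9, at 0.33 over 13 genes, with 10 positive differences. Hsph1, the cytosolic relative of Hyou1, was at 6.86 in the graft against 5.83 in the colon. The differences of ER chaperones and of their cytosolic relatives were similar: 0.58 for Hspa5 and 0.36 for the cytosolic HSP70 gene Hspa8, 0.32 for Hsp90b1 and 0.33 for Hsp90aa1, and 0.87 for Hyou1 and 1.03 for Hsph1. The positive differences were therefore not limited to chaperones of the ER, and no difference between these compartments was tested. Genes of transport between ER and Golgi had a median of 0.043 over 32 genes. The nearest to 2-fold were the cargo adaptor Sec24d, at 7.51 in the graft against 6.52 in the colon, and the cargo receptor Lman1, at 7.36 in the graft against 6.45 in the colon, both chosen after their values were seen.

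**Figure D4:**
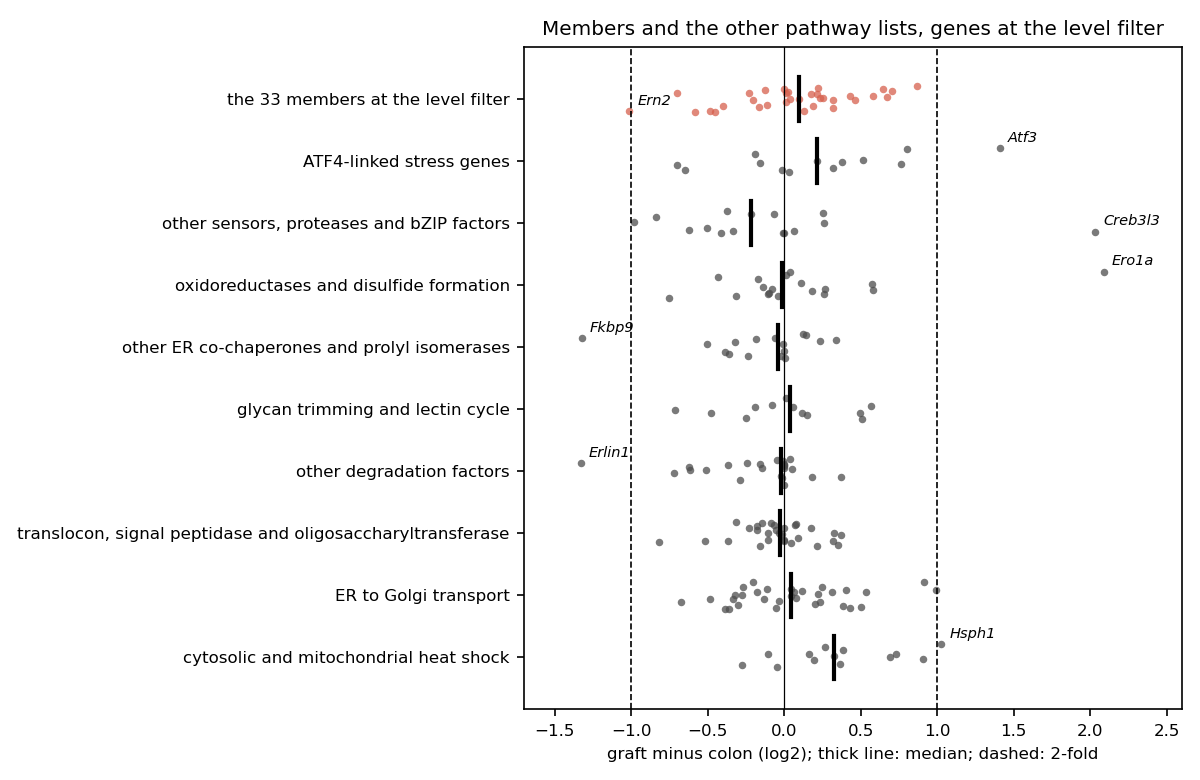
Difference of every gene at the level filter, graft minus colon on the log2 scale, for the 33 genes described here (top) and 9 lists of other genes of the pathway. Each point is a gene, thick lines are medians, dashed lines mark 2-fold, and genes past 2-fold are named. Ero1a and Creb3l3 lie farthest to the right, Erlin1 and Fkbp9 farthest to the left.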

How the data were processed

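Total RNA (4.33 ng per sample, per the labels' protocols) was amplified with a whole-transcriptome kit, labelled with biotin and hybridised to 1 array per group. The table that the authors deposited gives a log2 value for each of 24074 probe sets on either array. How the authors corrected background and normalized is not given in the sources consulted. The log2 scale was inferred from the values, 4.19 to 13.37 on the graft array and 4.22 to 13.46 on the colon array. The array medians were 5.44 for the graft and 5.43 for the colon, and the sorted columns differed by at most 0.25. Whether arrays were centred is unknown. Both arrays held the same value for 12.1% of probe sets. No detection calls come with the values. The number of arrays limits the precision.

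Probe sets were named through the platform annotation: 18904 carried 1 symbol, 1330 several and 3840 none. The Entrez identifiers of all 34 genes had the same symbol in the RefSeq table (GRCm38.p6). The values were used without further normalization. The genes, lists, thresholds and alternatives were chosen with earlier results of these data known. The genes named are all 34, other list genes past 2-fold at the level filter (at most 4 per direction) and a set of anchor genes, of which Kdelr2 was not analysed here and Kdelr3, Lyz1, Jchain, Mzb1 and Epcam are covered through their lists. Relatives of the 34 genes, such as Atf6b and Herpud2, were picked after their values were seen. So were the genes named for reaching the level filter on 1 array or on both. Counting was tested on simulated data. Scripts used Python 3.11.15, pandas 2.3.3, numpy 2.4.6 and matplotlib 3.10.9.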

Additional observations from a re-analysis of the deposited data

How the results depend on the processing

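Each count, the median and each gene were recomputed with the mean over the probe sets of a gene, quantile normalization, centring of each array on its median, no level filter, both arrays at the level filter, low values raised to the 20th percentile of the array, and probe sets with several symbols added. The counts were also recomputed at 1.5-fold. Of 39 values for the counts and the median, 34 stayed within 1.5 times the reported count or within the probe set SD of 0.34. For the median, which was 0.094, this SD is a loose limit, since even a change of sign could stay within it. Quantile normalization left 0 of the 33 genes at least 2-fold lower, with Ern2 at -0.94, and moved the median of all genes to -0.00084. At 1.5-fold, 4 of the 33 genes were higher and 2 lower, and 11 and 14 of the 171 other genes were higher and lower. The median of the 34 genes ran from 0.067 without the level filter to 0.16 with quantile normalization. Of 238 values for single genes, 0 moved by more than the probe set SD, and Sec61b alone changed sign, to -0.23 with the mean of its probe sets. Most settings could hardly move a single gene, so this count says little about stability. A level filter leaves the value of a gene as it is, and centring shifts all genes alike. Averaging can matter only for the 3 of the 34 genes with more than 1 probe set. No paired analysis was possible because each group has 1 array. Without detection calls, values near the low end of an array (4.75 in the graft and 4.74 in the colon at the 20th percentile) cannot be separated from background.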

Other observations

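Outside the 34 genes, 10 of the 7571 array genes at the level filter with a promoter window carried an exact ERSE or ERSE-II. Several of them also serve the ER. Alg12, a mannosyltransferase of glycan assembly, was at 5.29 in the graft against 5.50 in the colon. It lies head to head with Creld2, whose difference was 0.23, and both windows hold the same copy of ERSE. Nucb1, a calcium-binding protein known to restrain ATF6, holds ERSE-II and was at 7.46 in the graft against 7.97 in the colon. Krtcap2, a subunit of the oligosaccharyltransferase, holds ERSE-II after its start and was at 9.07 in the graft against 9.18 in the colon. Neighbouring genes with 1 shared element therefore had differences of opposite sign, -0.21 for Alg12 and 0.23 for Creld2, each within the probe set SD of 0.34. These genes were chosen after their values were seen.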
